A study of Mus musculus with 32 samples.

Results

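The 35 genes described here are the genes of the unfolded protein response and of the amino acid stress response, taken from a fixed list of symbols and found in the deposited counts through their NCBI gene IDs. All 35 were among the 24454 gene IDs of the table. They were read as 2 arms: 14 genes of the Atf4 arm, which are Atf4, its transcriptional partners and its targets, and 21 genes of the endoplasmic reticulum arm, here called the chaperone arm, which holds chaperones, disulphide isomerases, degradation factors and the stress sensors. Their level and spread were followed over 5 tumour stages and over the position of the region within the tissue. The study laser-captured regions from 3 females of the cross of MMTV-PyMT, R26-CBW and K8-CreERT2, in which the mammary tumour virus promoter drives the polyoma middle T oncogene in the mammary epithelium. A tamoxifen-inducible Cre driven by keratin 8 switched on 1 colour of a multicolour reporter in luminal cells, after 5 mg of tamoxifen at an age of 5 weeks. Every group carried all 3 alleles and the tamoxifen, so the normal gland also came from tumour-bearing oncogene mice. The age at collection is not in the labels, which place it at the permitted limit of tumour volume.

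The 32 regions comprised 3 of normal gland, 5 of hyperplasia, 8 of adenoma, 9 of carcinoma and 7 of lung metastasis. By position, hyperplasia was taken from the tumour core (3), the border (1) and outside the tumour (1), adenoma from the core (3), the border (3) and outside (2), carcinoma from the core (6) and the border (3), and metastases from the lung border (4) and the lung centre (3). Of the normal regions, 2 were pooled from several places and 1 carries the label of a tumour core. A region is a patch of 1 colour cut from a 7 µm section, and its cDNA was amplified before sequencing. The labels do not tie regions to animals, and 32 regions from 3 animals means that regions share animals.

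In the unfolded protein response, 3 sensors in the membrane of the endoplasmic reticulum, encoded by Ern1, Eif2ak3 and Atf6, respond to misfolded protein. Ern1 splices the Xbp1 transcript, Atf6 is cleaved to a transcription factor, and Eif2ak3 phosphorylates the initiation factor eIF2, which lowers general translation and favours translation of Atf4. Other kinases reach Atf4 through the same initiation factor when amino acids run short, so the Atf4 arm also answers to nutrient supply, and the chaperone arm is high in secretory cells such as those of the mammary gland.

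The 2 arms differ in the elements of their promoters, and the sequences that carry this difference are shown here. RefSeq windows of GRCm38.p6, from 250 bases before to 50 bases after an annotated start site, were at hand for 31 of the 35 genes. Manf, Atf6, Hyou1 and Slc7a5 had none. A member was counted as holding an element if any of its windows held it, while shares of all windows are per window. The 32851 windows belong to 27025 genes, so the 2 measures are not alike. The Slc7a11 window used below is at a start site inside the span of the gene. The Atf4 element, searched as TGATGNAA on both strands, was in the windows of 5 of 13 Atf4 arm genes and 1 of 18 chaperone arm genes, and in 3.97% of all 32851 windows. Capitals mark its fixed letters in Asns, which makes asparagine, at chr6:7693210-7693252 (minus strand), in Trib3, a pseudokinase that restrains the response, at chr2:152344039-152344066 (minus strand), in Chac1, which degrades glutathione, at chr2:119351029-119351076 (plus strand), and in Slc7a11, the cystine carrier, at chr3:50443652-50443699 (minus strand), where it occurs 2 times. All are printed in the direction of the gene.
Asns: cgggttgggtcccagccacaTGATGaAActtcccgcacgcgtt
Trib3: agcagcagattagctcaggtTTaCATCA
Chac1: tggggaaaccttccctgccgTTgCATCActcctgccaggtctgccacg
Slc7a11: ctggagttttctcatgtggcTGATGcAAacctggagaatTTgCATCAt

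The endoplasmic reticulum stress element, searched on both strands as CCAAT, any 9 bases and CCACG, was in the windows of 7 of 18 chaperone arm genes, in none of the 13 Atf4 arm genes and in 0.119% of all windows. A second form, ATTGG, 1 base and CCACG, was in 2 of 18 chaperone arm windows, those of Herpud1 and Dnajb11, and in 0.0365% of all windows. The core of the unfolded protein response element, TGACGTG, was in 1 member's window, that of Hspa5, and in 2.01% of all windows. The 7 genes with the first form were Hspa5, Hsp90b1, Calr, Canx, Pdia6, Creld2 and Dnajc3. The stretches below, in the direction of the gene, come from Hspa5 at chr2:34772005-34772063 (plus strand), Hsp90b1 at chr10:86705618-86705676 (minus strand), Calr at chr8:84847055-84847113 (minus strand), Canx at chr11:50325780-50325838 (minus strand), Pdia6 at chr12:17266471-17266529 (plus strand) and, for the second form, Herpud1 at chr8:94386357-94386407 (plus strand). Capitals mark the ends of the element.
Hspa5: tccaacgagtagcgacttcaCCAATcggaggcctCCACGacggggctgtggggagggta
Hsp90b1: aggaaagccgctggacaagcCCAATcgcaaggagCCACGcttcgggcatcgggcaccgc
Calr: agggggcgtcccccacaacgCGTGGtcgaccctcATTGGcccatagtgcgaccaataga
Canx: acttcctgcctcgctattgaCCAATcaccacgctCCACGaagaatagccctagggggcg
Pdia6: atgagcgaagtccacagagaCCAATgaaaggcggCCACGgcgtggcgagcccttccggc
Herpud1: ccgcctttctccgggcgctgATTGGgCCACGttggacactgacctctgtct

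The libraries held 2688611 to 19585351 counts and 10258 to 17667 detected genes, and 1 gene ID took 5.197% to 78.851% of a library's counts. Hyperplasia 22, adenoma 51 and metastasis 42 stood apart with fewer than 11000 detected genes, so results that rest on them are also given without them. Luminal markers were present in every library, with a summed level of 1444 to 5041 CPM (counts scaled to a common library size, with library sizes corrected by TMM) over 10 genes. Lung epithelial markers summed to 406 to 4585 CPM in metastases. The 35 genes together made up 0.0999% to 0.7671% of all counts. In such captured regions, fewer cells of a type and less RNA per cell cannot be told apart.

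Per length, the most abundant transcripts were those of Xbp1 and Calr, both of the chaperone arm. As a mean over the 32 libraries, per kilobase of exon, Xbp1 stood at 449.8 CPM per kb, followed by the lectin chaperone Calr at 293, the chaperone Hsp90b1 at 207, the stress regulator Nupr1 at 158 and Atf4 at 111 CPM per kb. The chaperones Pdia6, Canx and Hspa5 came next at 97.9, 91.4 and 83.9 CPM per kb. At the other end were Atf6 at 2.74, Eif2ak3 at 2.43, the cystine carrier Slc7a11 at 1.97 and Ern1 at 0.512 CPM per kb, so the transcription factor Xbp1 was far more abundant than the sensor Ern1 that splices it. Gene counts do not tell the spliced form of Xbp1 from the unspliced one. Neighbours in this order lie within the spread over libraries: Xbp1 had a mean level of 1075 ± 436 CPM and Calr of 640.1 ± 286 CPM (SD, n = 32).

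Detection set the limit for 2 of the genes. Chac1 had no count in 17 of 32 libraries, where 3 counts would correspond to between 0.180 and 0.856 CPM, and Ern1 had none in 10 libraries. Mthfd2, an enzyme of mitochondrial one-carbon metabolism, was at 0 in 4 libraries and had under 10 counts in 14. Trib3 and Eif2ak3 were at 0 in 3 libraries each. Creld2, Sdf2l1, Hyou1, Slc7a11 and Atf6 were each at 0 in 1 library, and Phgdh in 2. A level of 0 says that no molecule was caught at this depth, and this counting limit leaves out the loss of molecules before amplification.

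Spread between regions of 1 stage differed widely among the members. Measured as the pooled within-stage SD of log2(CPM + 1), Calr varied least at 0.55, and only 1.2% of the 12479 tested genes averaging 5 CPM or more had a smaller SD. Hsp90b1 followed at 0.60, Xbp1 at 0.67, the degradation adaptor Sel1l at 0.70 and the membrane lectin chaperone Canx at 0.70. The largest SDs were those of Trib3 at 2.07, Phgdh, the first enzyme of serine synthesis, at 1.81, Edem1, which directs misfolded glycoproteins to degradation, at 1.79, and Psat1, the second enzyme of serine synthesis, at 1.78. Neither arm lay wholly below the other, since Edem1 is of the chaperone arm and Nupr1, of the Atf4 arm, had an SD of 0.77.

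The median SD was 1.48 over the 13 Atf4 arm genes averaging 5 CPM or more and 1.14 over the 20 chaperone arm genes, against 1.55 over all genes above that level. Without the 3 libraries of fewest genes these medians were 1.39, 0.87 and 1.403. The spread of all genes was smaller at higher levels. Among genes at 100 CPM or more the median SD was 0.84 for 3 Atf4 arm genes, 0.70 for 8 chaperone arm genes and 0.79 for all genes. Between 20 and 100 CPM it was 1.59 for 6 Atf4 arm genes, 1.35 for 9 chaperone arm genes and 1.42 for all genes. Ddit3, the stress transcription factor also called Chop, had an SD of 0.97 at a mean of 30.1 CPM, and 13.3% of genes had a smaller one.

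**Figure D1:**
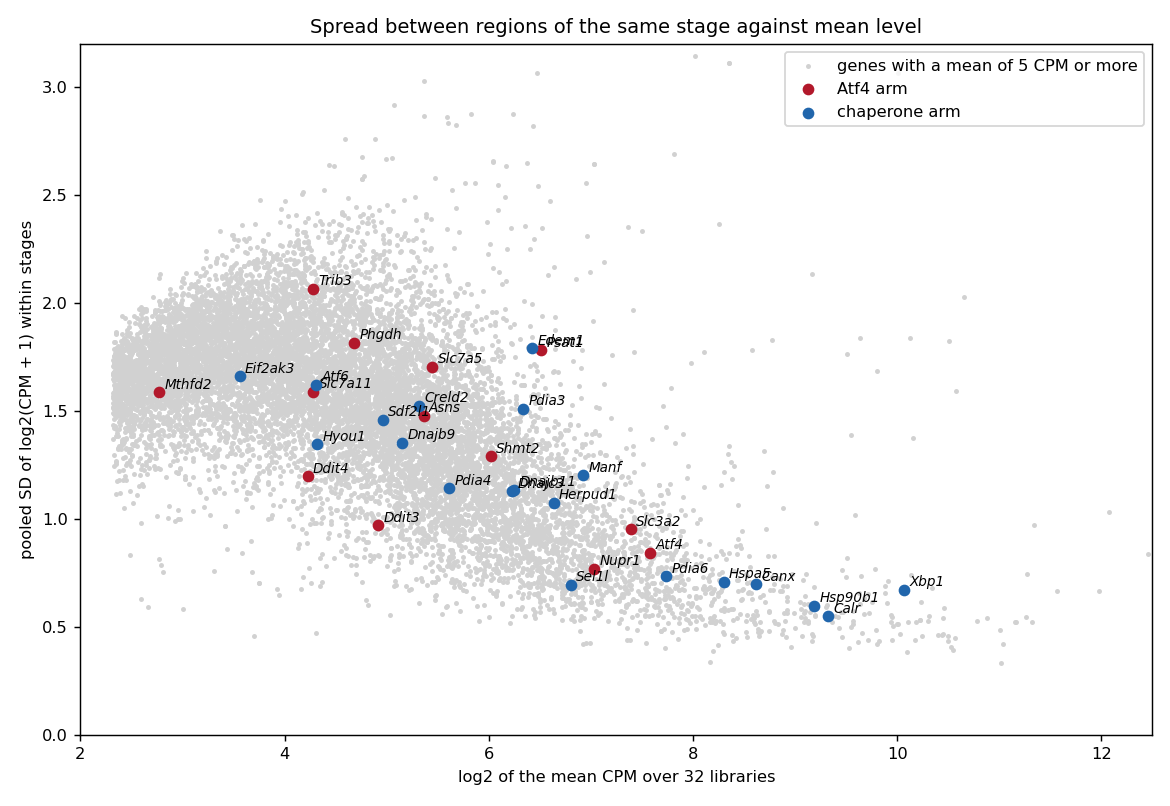
Pooled within-stage SD of log2(CPM + 1) against log2 mean CPM, with all tested genes in grey and the members of each arm in colour. Calr at 0.55 and Hsp90b1 at 0.60 lie along the lower edge, and Trib3 at 2.07 lies near the upper edge.

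Stage was first tested in 1 model over all 5 stages. None of the 35 genes passed an adjusted p of 0.05 in edgeR's quasi-likelihood test with Benjamini-Hochberg adjustment over 19907 genes, where 3.58% of all genes (712) passed. Unadjusted p lay under 0.05 for 1 gene, 2.86% of the members, against 20.9% of all genes. That gene was Atf4 (chr15:80255184-80257545), with an unadjusted p of 0.0110 and an adjusted p of 0.106. DESeq2 and limma voom also called 0 of the 35, and 4 (11.4%) and 2 (5.71%) of them had an unadjusted p under 0.05, against 12.2% of all genes in either tool, where 338 and 354 genes passed. Because regions share animals they are not independent, so p-values over regions are not exact and may be too small. The labels cannot settle how far, or in which direction, they are off.

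Atf4 had mean levels of 74.5 ± 10.7 CPM in normal gland (SD, n = 3), 347 ± 252 CPM in hyperplasia (n = 5), 191 ± 107 CPM in adenoma (n = 8), 164 ± 29.5 CPM in carcinoma (n = 9) and 166 ± 89.0 CPM in metastasis (n = 7). By library, adenoma ran between 115 and 412 CPM with a median of 147, carcinoma between 120.3 and 199 with a median of 172 CPM, and metastasis between 17.2 and 269 CPM. Only metastasis 56, at 17.2 CPM, lay below the normal libraries.

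The most abundant genes of the chaperone arm had ranges that overlapped between all stages. Xbp1 averaged 826 ± 409 CPM in normal gland, 1054 ± 562 CPM in hyperplasia, 1088 ± 424 CPM in adenoma, 1015 ± 482 CPM in carcinoma and 1257 ± 348 CPM in metastasis (SD). Hsp90b1 averaged 348 ± 182, 572 ± 140.4, 712 ± 205, 538 ± 175 and 604 ± 291 CPM over the same stages, and the isomerase Pdia6 166 ± 40.5, 255 ± 227, 233 ± 106, 201 ± 97.0 and 196 ± 64.2 CPM. Without hyperplasia 22, which held 621 CPM of Pdia6, the hyperplasia mean of that gene was 164 CPM. Pdia3, the isomerase that works with Calr and Canx, averaged 57.5 CPM in normal gland and 77.2 to 95.3 CPM in the other stages. Creld2, another isomerase-like protein of the endoplasmic reticulum, averaged 25.9 CPM in normal gland (35.9 CPM without normal 30) and 34.9 to 51.4 CPM elsewhere, and Hyou1, an exchange factor for Hspa5, ran from 9.30 CPM in hyperplasia to 32.9 CPM in metastasis. Hyperplasia 22 held 0.114 CPM of Hyou1 beside a stage median of 12.2 CPM, and metastasis 42 held 91.9 CPM beside a stage median of 25.95 CPM.

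In the Atf4 arm, Shmt2, the mitochondrial enzyme that takes a carbon from serine, averaged 49.2 ± 25.7, 40.6 ± 24.99, 67.7 ± 43.6, 69.7 ± 27.7 and 79.4 ± 53.9 CPM from normal gland to metastasis (SD). Ddit4, an inhibitor of the growth kinase mTORC1, averaged 13.2, 19.1, 12.0, 14.3 and 34.2 CPM, and Trib3 5.33, 15.8, 17.99, 16.2 and 33.9 CPM. Both metastasis means rest on few libraries: metastasis 42 held 129.7 CPM of Ddit4 beside a median of 11.1 CPM, and metastasis 42 and metastasis 58 held 98.6 and 123 CPM of Trib3 beside a median of 2.86 CPM. Counting without a stated strand setting also touches Shmt2, Hspa5, Pdia3 and Pdia6, which overlap the genes Ndufa4l2, Rabepk, Catsper2 and Atp6v1c2 in the annotation.

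**Figure D2:**
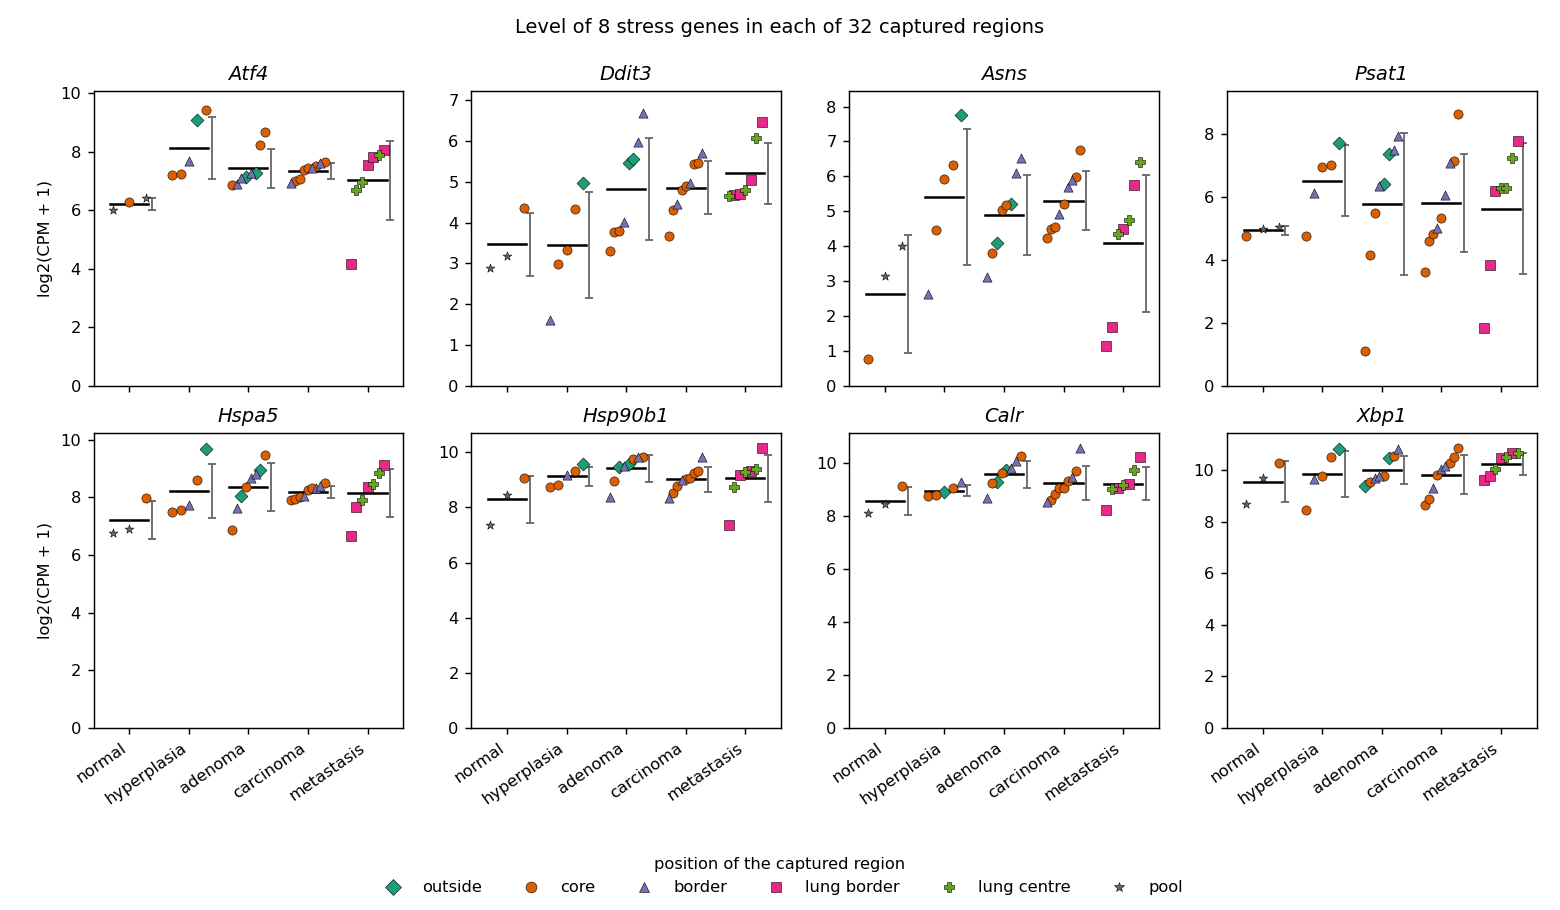
Level as log2(CPM + 1) of Atf4, Ddit3, Asns, Psat1, Hspa5, Hsp90b1, Calr and Xbp1 in each of the 32 libraries, from normal gland to metastasis; the marker gives the position, the black line the stage mean and the grey bar ± SD. For Atf4, the normal libraries at 62.9 to 83.9 CPM lie below all hyperplasia and carcinoma libraries.

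The comparison of hyperplasia with normal gland asks what differs at the first step. In hyperplasia Atf4 stood at 146, 149.8, 207, 542 and 689 CPM, against 62.9, 76.8 and 83.9 CPM in normal gland, and the groups did not overlap. The log2 difference was 2.22 with an SE of 0.64, an unadjusted p of 0.00122 and an adjusted p of 0.282. The 2 highest values came from hyperplasia 22 and hyperplasia 46, and leaving out the 3 libraries of fewest genes gave a log2 difference of 1.65 with an adjusted p of 0.417. Manf, a secreted factor of the endoplasmic reticulum, was the other gene whose groups did not overlap, at 101 to 179 CPM in hyperplasia against 52.5 to 69.1 CPM in normal gland. These 2 of 35 genes stand beside 1.35% of all genes that were higher without overlap and 3.77% that were lower.

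None of the 35 genes passed the adjusted threshold between hyperplasia and normal gland in edgeR, where 0% of all genes passed, nor in DESeq2 or limma voom, where 489 and 105 genes passed. An unadjusted p under 0.05 was reached by 4 members (11.4%), all higher in hyperplasia, against 12.4% of all genes, of which 3.68% were higher and 8.74% lower. DESeq2 had 4 members (11.4%) against 10.3% of all genes at that level, and limma voom 2 (5.71%) against 10.2%. In edgeR the members were Atf4, Asns, Hspa5 and Dnajb11. Asns (chr6:7675165-7693209) stood at 5.25, 20.9, 59.3, 78.8 and 217 CPM in hyperplasia, against 0.690, 7.80 and 15.0 CPM in normal gland, and the groups overlapped through hyperplasia 44. Its log2 difference was 3.29 with an SE of 1.201 and an adjusted p of 0.282, and 0.690 CPM rests on under 10 counts.

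Hspa5, the main chaperone of the endoplasmic reticulum, stood at 179, 189, 213, 386 and 816 CPM in hyperplasia, against 106, 119 and 249.7 CPM in normal gland. The groups overlapped, the log2 difference was 1.17 with an SE of 0.54 and an adjusted p of 0.372, and without hyperplasia 46 the log2 difference was 0.53. Dnajb11, its co-chaperone, stood at 23.0, 30.8, 87.5, 101 and 474 CPM in hyperplasia, against 33.9, 38.8 and 52.1 CPM in normal gland. Hyperplasia 22 held the highest value; the log2 difference of 1.78 (SE 0.88, adjusted p 0.396) was 0.41 without that library. For Psat1 the means were 110.4 ± 68.3 CPM over the 5 hyperplasia libraries and 29.6 ± 3.21 CPM over the 3 normal ones (SD), and for Canx 536 ± 472 CPM over hyperplasia and 267 ± 162 CPM over normal gland. The Canx mean of hyperplasia was 349.9 CPM without hyperplasia 22, which held 1282 CPM, and that of normal gland 173 CPM without normal 18. Other members had lower means in hyperplasia, given here before those of normal gland. Nupr1 averaged 119 against 224 CPM, Sdf2l1 14.2 against 36.8 CPM and Dnajb9 23.0 against 45.7 CPM. Eif2ak3 averaged 2.10 against 11.5 CPM and Ern1 3.51 against 10.5 CPM, with normal 30 highest for both, at 23.4 and 23.2 CPM. All these ranges overlapped. Log2 differences were below 0 for 3 of 14 Atf4 arm genes and 8 of 21 chaperone arm genes.

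As an arm, 11 of 14 Atf4 arm genes and 13 of 21 chaperone arm genes had a log2 difference above 0 between hyperplasia and normal gland, beside 49.5% of all genes. The median log2 difference was 0.47 for the Atf4 arm, 0.35 for the chaperone arm and 0.00 for all genes. These values depend on the scaling: with DESeq2 size factors 9 of 14 Atf4 arm genes and 9 of 21 chaperone arm genes were above 0. Under DESeq2 size factors the median of all genes was -0.35, that of the Atf4 arm 0.16 and that of the chaperone arm -0.05, so relative to all genes the 2 scalings gave 0.47 and 0.50 for the Atf4 arm and 0.35 and 0.30 for the chaperone arm. Other cell types differed alongside. Fibroblast markers summed to 131 to 974 CPM in hyperplasia against 819 to 3604 CPM in normal gland, and adipocyte markers to 0.247 to 94.8 CPM against 109 to 903 CPM. Plasma and B cell markers, of which 7 of 10 were found, summed to 0.0889 to 35.04 CPM in hyperplasia, with Tnfrsf17, Cd79b and Ms4a1 at 0 in all 5 libraries, against 33.04 to 959.9 CPM in normal gland. Luminal markers summed to 1989 to 4468 CPM in hyperplasia against 1444 to 2217 CPM in normal gland, and 12 proliferation genes to 497 to 1676 CPM against 253 to 330.4 CPM. Their part in the levels of the 35 genes was not tested.

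Carcinoma and normal gland were compared next. None of the 35 genes passed the adjusted threshold in edgeR, DESeq2 or limma voom, where 0.00502% of all genes passed in edgeR, and 1 member (2.86%) against 8.17% of all genes had an unadjusted p under 0.05. DESeq2 and limma voom each had 3 members (8.57%) at that level, against 6.38% and 12.9% of all genes. At the adjusted threshold these tools passed 177 and 316 genes in all. Asns stood at 17.99 to 108 CPM in carcinoma with a median of 35.9 CPM, against 0.690, 7.80 and 15.0 CPM in normal gland, with no overlap. Its log2 difference was 2.54 with an SE of 1.11 and an adjusted p of 0.552. Atf4 was also higher without overlap, at 120.3 to 199 CPM in carcinoma against 62.9 to 83.9 CPM in normal gland. For scale, 0.894% of all genes were higher and 1.25% lower without overlap.

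The medians of the log2 differences between carcinoma and normal gland were 0.998 for the Atf4 arm (11 of 14 above 0), 0.48 for the chaperone arm (19 of 21 above 0) and 0.10 for all genes, of which 52.7% were above 0. Under DESeq2 size factors they were 0.59, 0.08 and -0.31, and 9 of 14 Atf4 arm genes and 12 of 21 chaperone arm genes were above 0. Calr averaged 659.6 ± 352 CPM in carcinoma and 391 ± 149 CPM in normal gland, and Hspa5 292 ± 43.1 CPM over the 9 carcinoma libraries and 158 ± 79.4 CPM over the 3 normal ones (SD). Nupr1 went the other way in its means, with 159 CPM in carcinoma and 224 CPM in normal gland. Both comparisons with normal gland share the same 3 normal libraries. The 1 gene of all genes that passed was Cfd, an adipocyte marker (log2 difference -10.77, adjusted p 0.00454 in edgeR). Adipocyte markers summed to 0.926 to 13.6 CPM in carcinoma against 109 to 903 CPM in normal gland, fibroblast markers to 38.5 to 2659 CPM in carcinoma against 819 to 3604 CPM in normal gland, and proliferation genes to 315 to 1103 CPM against 253 to 330.4 CPM; their part was not tested.

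Adenoma was then compared with hyperplasia. Here 0 of 35 passed in edgeR, DESeq2 and limma voom, beside 0% of all genes in edgeR, and 3 members (8.57%) against 14.8% of all genes had an unadjusted p under 0.05. DESeq2 had 5 members (14.3%) against 11.6% of all genes at that level, and limma voom 1 (2.86%) against 4.44%. At the adjusted threshold these tools passed 609 and 2 genes in all. Calr stood at 401 to 1215 CPM in adenoma with a median of 807 CPM, against 423, 440.4, 477, 521 and 613 CPM in hyperplasia. Its log2 difference was 0.69 with an SE of 0.34 and an adjusted p of 0.337; the groups overlapped. Eif2ak3, the kinase upstream of Atf4, stood at 0 to 89.0 CPM in adenoma with a median of 8.99 CPM, against 0, 0.209, 0.659, 3.91 and 5.74 CPM in hyperplasia, a log2 difference of 3.24 with an SE of 1.49 and an adjusted p of 0.295. Adenoma 48 held the 89.0 CPM, and most of the hyperplasia values rest on few counts.

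Slc3a2, the heavy chain of several amino acid carriers, stood at 54.3 to 174 CPM in adenoma with a median of 96.1 CPM, against 41.5, 102, 114, 185 and 732 CPM in hyperplasia. The log2 difference of -1.14 (SE 0.52, adjusted p 0.285) rested on hyperplasia 22, which held 732 CPM: it was -0.05 without that library and 0.01 without the 3 libraries of fewest genes. Atf4 averaged 191 CPM in adenoma and 347 CPM in hyperplasia, Ddit3 37.8 CPM in adenoma and 13.5 CPM in hyperplasia, and Dnajc3, an inhibitor of Eif2ak3, 44.4 CPM in adenoma and 97.3 CPM in hyperplasia. The median log2 difference was -0.23 for the Atf4 arm, 0.13 for the chaperone arm and 0.06 for all genes.

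Carcinoma against adenoma gave 0 members past the adjusted threshold in edgeR, DESeq2 and limma voom, beside 0% of all genes in edgeR, and 0 members against 12.6% of all genes with an unadjusted p under 0.05 in edgeR. The smallest p-values belonged to Nupr1 (159 CPM in carcinoma, 104 CPM in adenoma), Slc7a11 (13.6 CPM in carcinoma, 31.1 CPM in adenoma), Mthfd2, an enzyme of mitochondrial folate metabolism (13.5 CPM in carcinoma, 2.42 CPM in adenoma), Dnajc3 (87.1 CPM in carcinoma, 44.4 CPM in adenoma), Hsp90b1 (538 CPM in carcinoma, 712 CPM in adenoma) and the isomerase Pdia4 (67.6 CPM in carcinoma, 42.2 CPM in adenoma). Single libraries carried some of these means. Without adenoma 47, at 134 CPM, the Slc7a11 mean of adenoma was 16.3 CPM. Mthfd2 averaged 7.03 CPM in carcinoma without carcinoma 6, at 64.99 CPM, and 1.57 CPM in adenoma without adenoma 50. DESeq2 and limma voom had 2 (5.71%) and 4 (11.4%) members with an unadjusted p under 0.05, against 8.87% and 6.19% of all genes. At the adjusted threshold these tools passed 265 and 7 genes in all. The medians of the log2 differences were 0.14 for the Atf4 arm, -0.09 for the chaperone arm and 0.02 for all genes.

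Metastasis against carcinoma gave 0 members in edgeR, DESeq2 and limma voom, beside 0.0151% of all genes in edgeR, and 1 member (2.86%) against 10.9% of all genes with an unadjusted p under 0.05. DESeq2 had 4 members (11.4%) against 7.98% of all genes at that level, and limma voom 2 (5.71%) against 6.64%. At the adjusted threshold these tools passed 186 and 19 genes in all. Slc3a2 stood at 71.5 to 568.1 CPM in metastasis with a median of 159 CPM, against 56.4 to 221 CPM in carcinoma with a median of 126 CPM. The log2 difference was 0.94 with an SE of 0.46 and an adjusted p of 0.457, and without metastasis 57, the highest library, it was 0.57. Its partner Slc7a5 averaged 79.0 CPM in metastasis and 32.6 CPM in carcinoma, Nupr1 93.0 CPM in metastasis and 159 CPM in carcinoma, the co-chaperone Sdf2l1 17.7 CPM in metastasis and 42.1 CPM in carcinoma, and Sel1l 95.4 CPM in metastasis and 147 CPM in carcinoma. Ern1 averaged 8.60 CPM in metastasis and 0.866 CPM in carcinoma, and metastasis 40 alone held 46.3 CPM, without which the metastasis mean was 2.31 CPM; without carcinoma 37 the carcinoma mean was 0.480 CPM. Lung epithelial markers summed to 406 to 4585 CPM in metastasis against 0.942 to 43.4 CPM in carcinoma, and their part in these levels was not tested. In all stage comparisons, p-values over regions that share animals are not exact and may be too small.

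**Figure D3:**
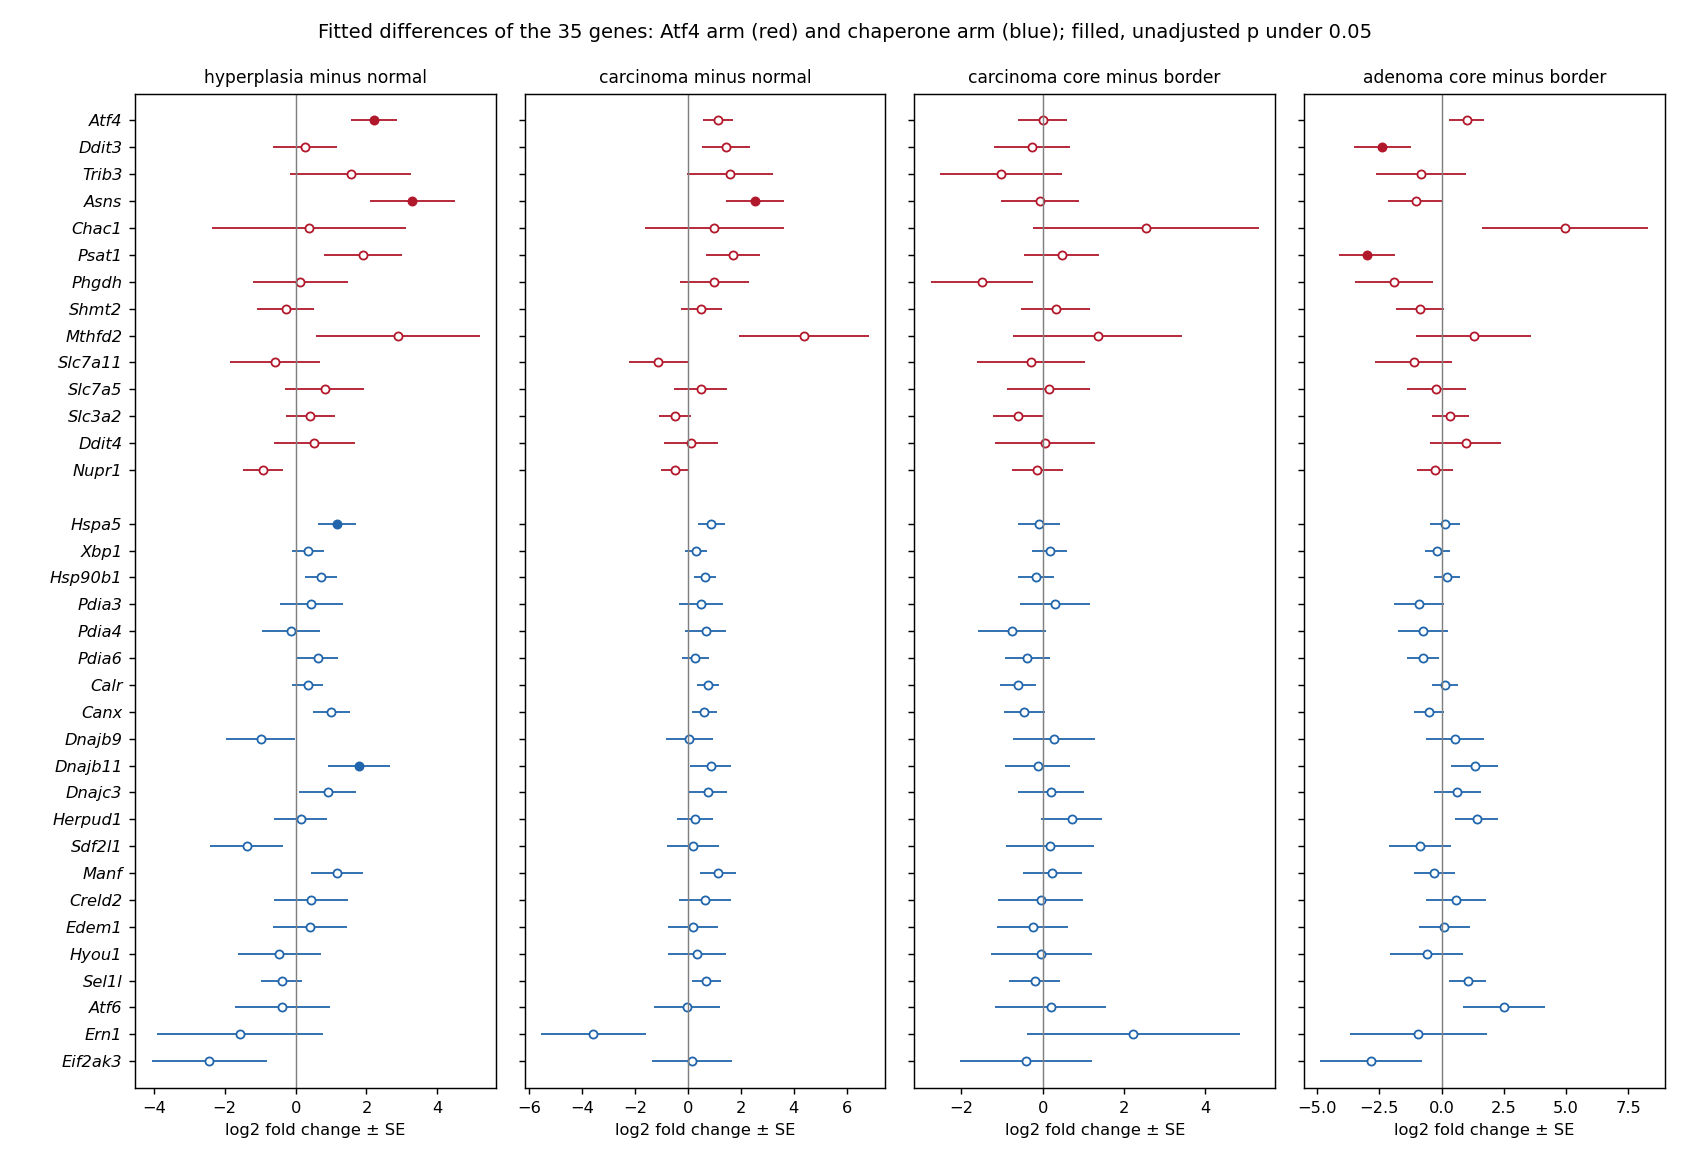
Log2 difference ± SE of each of the 35 genes for hyperplasia minus normal, carcinoma minus normal, carcinoma core minus border and adenoma core minus border, with the Atf4 arm in red, the chaperone arm in blue and filled points for an unadjusted p under 0.05. Atf4 (2.22) and Asns (3.29) are filled in the first panel, and Psat1 (-3.00) and Ddit3 (-2.38) in the last.

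Position within the tissue was tested in a model with a term for each stage and position, over 22676 genes. In adenoma, the members of smallest p between core and border were 2 genes of the Atf4 arm. Psat1 (chr19:15905123-15925059) stood at 1.14, 16.8 and 43.8 CPM in adenoma core, against 79.9, 178 and 241 CPM in adenoma border, with no overlap. The log2 difference was -3.00 with an SE of 1.13, an unadjusted p of 0.0100 and an adjusted p of 0.514, and it was -2.46 without the 3 libraries of fewest genes, which removes adenoma 51 from the core. Ddit3 (chr10:127290793-127296291) stood at 8.85, 12.6 and 12.9 CPM in core, against 15.2, 61.8 and 102 CPM in border, also with no overlap. Its log2 difference was -2.38 with an SE of 1.15, and its adjusted p was 0.514 in edgeR, but 0.0290 in DESeq2. Ddit3 overlaps Mbd6 and Mars1 in the annotation, and without a stated strand setting their reads cannot be told apart.

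In edgeR 0 of 35 genes passed between adenoma core and border, beside 0% of all genes, and 2 members (5.71%) against 9.45% of all genes had an unadjusted p under 0.05. DESeq2 called 1, Ddit3, and limma voom 0, where they called 1143 and 35 genes in all. At an unadjusted p under 0.05, DESeq2 had 2 members (5.71%) against 12.2% of all genes, and limma voom 4 (11.4%) against 6.86%. Ddit3 and Psat1 were the only members lower without overlap, beside 2.35% of all genes, and Sel1l was the only one higher without overlap, at 134, 147 and 228 CPM in core against 36.3, 81.5 and 128 CPM in border, beside 3.49% of all genes. Herpud1, which takes part in degradation at the membrane, stood at 27.7, 181 and 332 CPM in core against 23.8, 56.1 and 124 CPM in border. The sensor Atf6 stood at 4.35, 24.5 and 72.5 CPM in core against 0.111, 1.17 and 17.02 CPM in border. Dnajb11 stood at 17.5, 45.0 and 241 CPM in core against 6.36, 54.5 and 58.9 CPM in border. All 3 overlapped, and the highest core value of Dnajb11 was that of adenoma 51, without which its mean was 31.3 CPM in core, against 39.9 CPM in border. The median log2 difference was -0.54 over the Atf4 arm (5 of 14 above 0), 0.12 over the chaperone arm (11 of 21) and 0.00 over all genes, of which 43.7% were above 0. Under DESeq2 size factors the chaperone arm median was -0.05. Proliferation genes summed to 515, 734 and 843 CPM in core against 912, 986 and 1202 CPM in border, and fibroblast markers to 32.5, 86.2 and 189 CPM in core against 78.1, 114 and 1361 CPM in border; their part was not tested.

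Carcinoma core and border gave 0 members in edgeR, DESeq2 and limma voom, beside 0% of all genes in edgeR, and 0 members against 5.63% of all genes with an unadjusted p under 0.05 in edgeR (0 members against 4.14% in DESeq2, and 1 member, 2.86%, against 3.97% in limma voom). Over all genes, DESeq2 passed 314 and limma voom 5 at the adjusted threshold. No member's ranges were apart, beside 0.503% of all genes higher and 0.732% lower. Psat1 stood at 11.4, 23.4, 27.4, 38.9, 138 and 393 CPM in carcinoma core, against 30.9, 65.5 and 134 CPM in carcinoma border. Phgdh, the enzyme before it, averaged 20.3 ± 15.9 CPM in core (SD, n = 6) and 57.8 ± 30.0 CPM in border (n = 3). Slc3a2 averaged 107 CPM in core and 163 CPM in border. Calr stood at 386 to 830.3 CPM in core with a mean of 561 CPM, against 365, 697 and 1509 CPM in border, and without carcinoma 55 the border mean was 531 CPM. Pdia4 stood at 27.2 to 103 CPM in core with a mean of 54.7 CPM, against 34.1, 61.6 and 185 CPM in border, and without carcinoma 39 the border mean was 47.8 CPM. Leaving out either library thus turned the order of core and border for that gene, and leaving out carcinoma 37, at 393 CPM, did so for Psat1 (47.8 CPM in core, 76.7 CPM in border). Herpud1 stood at 47.1 to 196 CPM in core, against 47.2, 55.5 and 129.6 CPM in border. The median log2 difference was -0.03 for the Atf4 arm and -0.05 for the chaperone arm, against 0.15 for all genes; under DESeq2 size factors they were 0.01, -0.05 and 0.22.

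Whether the core and border difference itself differed between carcinoma and adenoma was tested as an interaction. In edgeR 0 members passed, beside 0% of all genes, and 1 member (2.86%) against 8.77% of all genes had an unadjusted p under 0.05. DESeq2 and limma voom called 0 members, where they called 704 and 1 genes in all. They had 2 (5.71%) and 0 members at an unadjusted p under 0.05, against 9.38% and 5.71% of all genes. The edgeR member was Psat1, with an interaction of 3.47 on the log2 scale (SE 1.46, unadjusted p 0.0206, adjusted p 0.519). With each library left out in turn, this interaction lay between 2.36 and 4.65.

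Early lesions outside the tumour were compared with those in its core, averaging hyperplasia and adenoma. Each stage had equal weight, so the hyperplasia part rests on hyperplasia 46, its only region outside the tumour. That region held the highest outside values of Psat1 and Edem1, and the comparison could not be fitted without it. Psat1 stood at 84.7, 162 and 207 CPM outside, against 1.14, 16.8, 26.1, 43.8, 123 and 128 CPM in core. The log2 difference was 1.88 with an SE of 0.89 and an adjusted p of 0.768, and it was 1.33 without the 3 libraries of fewest genes. Edem1 stood at 46.05, 118 and 450 CPM outside, against 0.571, 0.911, 50.7, 51.04, 95.1 and 126 CPM in core, with a log2 difference of 1.94 (SE 0.87, adjusted p 0.768) that was 1.31 without those libraries, which hold the 2 lowest core values. Ddit3 averaged 39.9 ± 8.27 CPM outside (SD, n = 3) and 11.6 ± 4.33 CPM in core (n = 6) and was the only member without overlap, beside 1.05% of all genes that were higher in that way. Hspa5 averaged 524 CPM outside and 318 CPM in core. Dnajb9, a co-chaperone, stood at 2.06, 11.8 and 46.4 CPM outside, against 10.7 to 65.1 CPM in core.

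Between outside and core, 0 of 35 genes passed in edgeR, beside 0% of all genes, and 2 members (5.71%) against 5.39% of all genes had an unadjusted p under 0.05. DESeq2 called 1, Chac1, with an adjusted p of 0.0362, while limma voom called 0, and they called 1803 and 42 genes in all. At an unadjusted p under 0.05, DESeq2 had 4 members (11.4%) against 16.3% of all genes, and limma voom 7 (20.0%) against 11.9%. Chac1 had no count in 2 of 3 outside libraries and in 4 of 6 core libraries, and its highest value was 8.24 CPM in adenoma 24. The median log2 difference was 0.77 for the Atf4 arm, 0.12 for the chaperone arm and -0.69 for all genes, and under DESeq2 size factors 0.58, -0.05 and -0.89. Proliferation genes summed to 1078, 1171 and 1676 CPM outside against 497 to 1166.1 CPM in core, and milk genes to 4482, 22344 and 30971 CPM outside against 4610 to 18663 CPM in core; their part was not tested.

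In metastases, the lung border and the lung centre gave 0 members in edgeR, DESeq2 and limma voom, beside 0% of all genes in edgeR, and 0 members against 8.71% of all genes with an unadjusted p under 0.05 in edgeR (0 members against 9.67% in DESeq2, and 2 members, 5.71%, against 8.10% in limma voom). Over all genes, DESeq2 passed 744 and limma voom 12 at the adjusted threshold. Slc3a2 averaged 315 ± 204 CPM at the lung border (SD, n = 4) and 144 ± 80.0 CPM at the lung centre (n = 3). Asns stood at 1.2025, 2.19, 21.6 and 52.98 CPM at the border, against 19.4, 25.7 and 83.5 CPM at the centre. The highest centre value was that of metastasis 42, without which the centre mean was 22.6 CPM, against 19.5 CPM at the border. Dnajb9 stood at 11.4, 21.9, 47.1 and 103 CPM at the border, against 1.08, 20.2 and 23.4 CPM at the centre, and Sdf2l1 at 7.48, 14.4, 29.3 and 43.4 CPM at the border, against 2.52, 3.24 and 23.2 CPM at the centre. No member's ranges were apart, beside 1.62% of all genes higher and 1.31% lower. The median log2 difference was -0.12 for the Atf4 arm and 0.02 for the chaperone arm, against 0.30 for all genes, and -0.27, -0.06 and 0.32 under DESeq2 size factors. All position tests treat regions as separate samples, and since regions share animals these p-values too are not exact and may be too small.

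Each arm was also summarised as a score, the mean log2(CPM + 1) over those of its members that averaged 5 CPM or more (13 and 20 genes). The Atf4 arm score averaged 4.28 ± 0.23 in normal gland, while hyperplasia had 4.78 ± 0.83, adenoma 4.76 ± 0.79, carcinoma 5.10 ± 0.54 and metastasis 4.97 ± 0.87 (SD). The chaperone arm score averaged 6.02 ± 0.34, 5.96 ± 0.37, 6.22 ± 0.75, 6.50 ± 0.32 and 6.26 ± 0.34 in the same order. For both scores the ranges of all 5 stages overlapped. Adenoma 51, with few detected genes, held the lowest value of each score, 2.95 and 4.53. Metastasis 58 had the highest Atf4 arm score, 6.04, and carcinoma 54 the highest chaperone arm score, 7.05. In adenoma the Atf4 arm score was 2.95, 4.94 and 5.02 in core, against 4.44, 5.08 and 5.54 in border, with a core mean of 4.30, or 4.98 without adenoma 51, and a border mean of 5.02. The chaperone arm score was 4.53, 6.39 and 6.96 in adenoma core, against 6.06, 6.29 and 6.47 in border, and its core mean of 5.96 was 6.67 without adenoma 51, against 6.28 in border, so that library turned the order. In carcinoma the Atf4 arm score averaged 4.99 in core and 5.31 in border, and the chaperone arm score lay between 6.05 and 7.05 in core, against 6.31 to 6.78 in border. At the lung border the Atf4 arm score lay between 3.64 and 6.04, against 4.22 to 5.95 at the lung centre, and the chaperone arm score between 5.97 and 6.74, against 5.83 to 6.57.

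**Figure D4:**
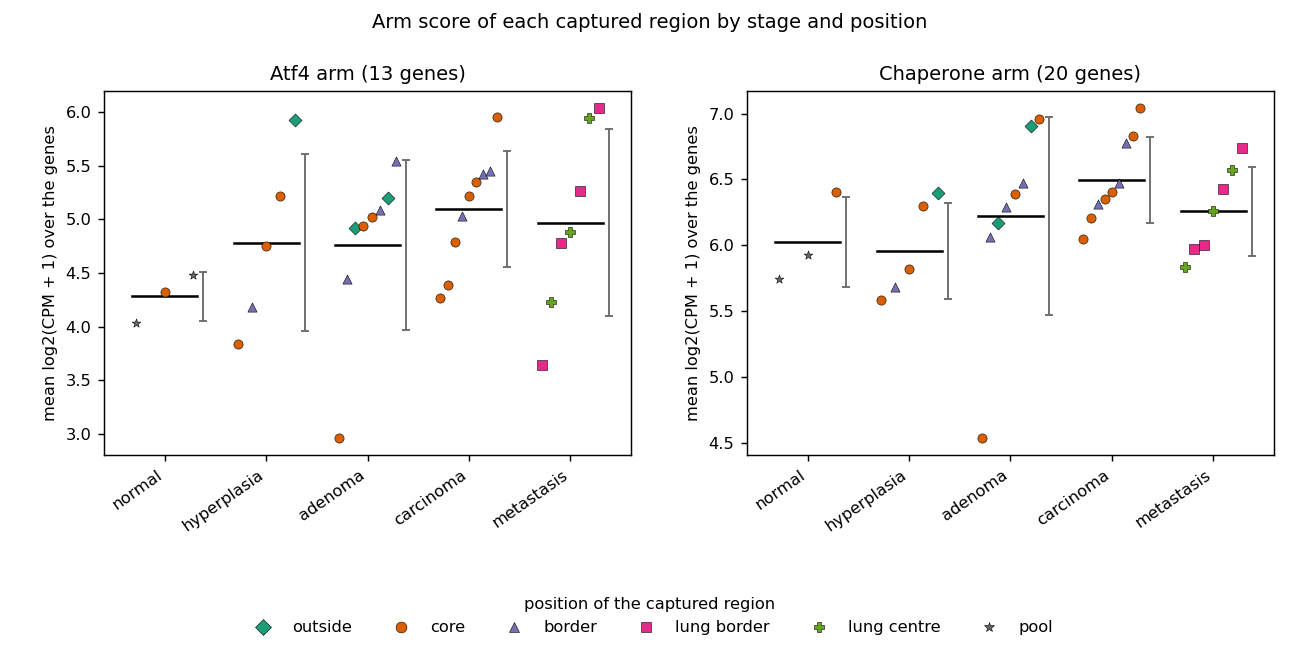
Score of the Atf4 arm and of the chaperone arm, as the mean log2(CPM + 1) of its members, in each library by stage and position, with the mean and SD. The adenoma core library at 2.95 and 4.53 lies below all others in both panels.

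Whether members move together between regions was described by Spearman's rho on levels centred on their stage mean, over 32 libraries that share animals, scaling and the number of detected genes. The median rho was 0.151 over 78 pairs within the Atf4 arm (54 above 0), 0.106 over 190 pairs within the chaperone arm (123 above 0) and 0.116 over 260 pairs between arms (183 above 0), against 0.021 over pairs of all genes at 5 CPM or more. The share above 0 among pairs of all genes was not counted. Without the 3 libraries of fewest genes the medians were 0.083, 0.052, 0.074 and 0.005. Over all 32 libraries the highest rho was that of Hsp90b1 with Calr, a pair of abundant chaperones whose windows both hold the stress element, at 0.767, and it was 0.764 without those libraries. Asns with Psat1 reached 0.581, and 0.692 without those libraries. Between arms the highest were Psat1 with Pdia3 at 0.621 and Shmt2 with Hspa5 at 0.613, which were 0.493 and 0.373 without those libraries. Shmt2 with Pdia6 moved the other way, with 0.531 over all libraries and 0.766 without those 3, where it was the highest of all pairs.

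The 9 chaperone arm genes with either form of the stress element had a median rho of 0.229 over 36 pairs. It was 0.105 over 28 pairs of the 8 genes that had a window, no such element and a mean of 5 CPM or more. Without the 3 libraries of fewest genes these were 0.143 and 0.025. The genes with an element were also more abundant, with a median of their mean levels of 213 CPM against 64.9 CPM, so level and element cannot be told apart here. The median rho of Atf4 with the other 13 members of its arm was 0.042, and 0.209 without those libraries. Atf4 is controlled in large part at translation, which RNA levels do not record.

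**Figure D5:**
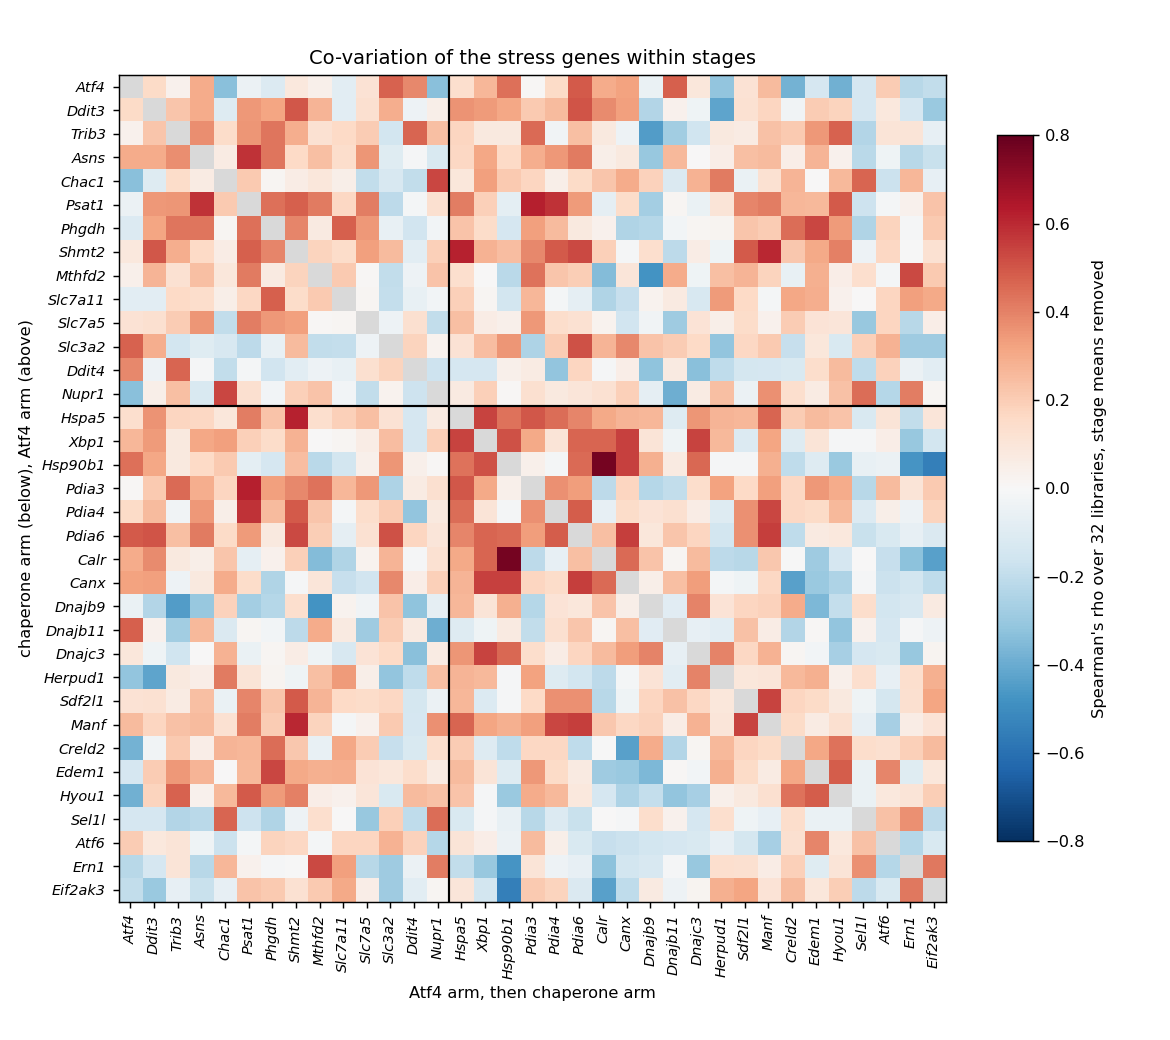
Spearman's rho between the stage-centred levels of the 35 genes over 32 libraries, with black lines between the Atf4 arm and the chaperone arm. The pair of Hsp90b1 and Calr, at 0.767, stands out against medians of 0.151 and 0.106 within the arms.

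The scores were also set beside summed levels of other gene lists, as a description over libraries that share animals and scaling. Centred on stage, the summed level of 12 proliferation genes had a rho of 0.596 and an r of 0.727 with the Atf4 arm score and 0.600 for both with the chaperone arm score over 32 libraries. Leaving out the 3 libraries of fewest genes gave a rho of 0.585 and 0.565. The chaperone arm score had a rho of 0.487 with the summed level of other folding genes of the endoplasmic reticulum, and 0.655 without those libraries, and the Atf4 arm score one of 0.419 with other integrated stress genes, and 0.659 without them. Psat1 had a rho of 0.797 with proliferation, Asns 0.558, Hspa5 0.488, Ddit3 0.364 and Atf4 0.122; without those 3 libraries they were 0.772, 0.667, 0.431, 0.266 and 0.412 in the same order. Over members the median rho with proliferation was 0.364 for the Atf4 arm (10 of 13 above 0). It was 0.195 for the chaperone arm (17 of 20 above 0) and 0.045 for all genes, of which 57.3% were above 0. Without the 3 libraries of fewest genes these medians were 0.270 (11 of 14), 0.121 (17 of 20) and -0.008 (48.7% above 0).

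Further genes of the pathways, kept apart from the 35, were counted in 2 lists: 44 genes of the integrated stress response, among them other eIF2 kinases, tRNA synthetases and amino acid carriers, and 52 genes of protein entry, folding, glycosylation and degradation at the endoplasmic reticulum. None passed the adjusted threshold of edgeR in any stage or position comparison. Between hyperplasia and normal gland, 2 integrated stress genes were higher and 1 lower at an unadjusted p under 0.05, of 43 tested, and 6 folding genes were higher and 1 lower, of 52 tested, beside 3.68% of all genes higher and 8.74% lower. The median log2 differences were 0.62 (31 of 43 above 0) and 0.61 (43 of 52 above 0), against 0.00 for all genes. Under DESeq2 size factors they were 0.07 (23 of 43 above 0) and 0.24 (36 of 52 above 0), against -0.35 for all genes. Between carcinoma and normal gland, 3 integrated stress genes and 4 folding genes were higher at an unadjusted p under 0.05 and 0 were lower, beside 8.17% of all genes in either direction. The medians were 0.80 (32 of 43 above 0) and 0.57 (47 of 52 above 0) against 0.10 for all genes, and under DESeq2 size factors 0.35 (23 of 43) and 0.14 (32 of 52) against -0.31.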

How the data were processed

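RNA was measured in 32 laser-captured regions. The authors deposited 1 table of raw counts per NCBI gene ID, whole numbers without normalization, whose columns match the sample titles. The submitters' processing notes name STAR and the build mm10. The deposited counts carry the name quasR, a counting program. The annotation and strand setting of the counting step were not given in the sources used here. Reads carry no molecular identifiers, so counting limits cover counting error only.

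Symbols, positions and promoter windows came from RefSeq GRCm38.p6, in which 24374 of 24454 IDs had a symbol. Exon lengths were those of the merged exons of the GENCODE basic set, matched through NCBI gene IDs. Samples were grouped by the stage and position in the labels. Genes were kept by filterByExpr (19907 for stages, 22676 for stage and position; all 35 members passed both), scaled by TMM and fitted over all 32 libraries with the edgeR 4.0.16 quasi-likelihood model, with two-sided tests and Benjamini-Hochberg adjustment over all genes (threshold 0.05). The common dispersion was 2.64. DESeq2 1.42.0 and limma 3.58.1 voom with quality weights were alternatives, run in R 4.3.3. Scores used a pseudocount of 1. The 28 named members were a fixed set and, for each comparison, the 3 members of smallest p in each arm. Not all of them are described under each comparison. The members and lists were chosen with earlier results of these data known. Where leaving out 1 library turned the order of 2 means or moved a mean by over 1.5 times, the mean without it or the value of each library is given for most genes named, a step added after seeing the data. The fits were tested on simulated data. Other alternatives were the scaling, the filter, each library left out, a covariate for detected genes, the groups compared alone, and leaving out the 3 libraries of fewest genes or the gene ID of highest share.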

Additional observations from a re-analysis of the deposited data

Results flagged for a closer look

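The groups looked at were 120, of 5 to 9 libraries each (28 named members and 2 scores in 4 stages). Of these, 10 held a lowest or highest library set apart from the others by a wide gap. Chance gives about 1 in 20 for independent groups of normally distributed values. These groups share libraries, so that rate is no measure here. In adenoma, library 51 lay below the rest for Pdia4 (1.14 CPM), Sdf2l1 (0 CPM), Edem1 (0.571 CPM), the Atf4 arm score (2.95) and the chaperone arm score (4.53); this library had 10769 detected genes, and 1 gene ID took 57.5% of its counts. In metastasis, Atf4 was lowest in library 56 at 17.2 CPM, Slc7a5 in library 2 at 0.212 CPM, and Dnajc3 in library 42 at 7.57 CPM. Chac1 was highest in hyperplasia 44 at 11.2 CPM and in adenoma 24 at 8.24 CPM, with most other libraries of those stages at or near 0.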

How the results depend on the processing

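No paired analysis was possible because the replicate numbers in the labels are unique across groups and tie no region to an animal. The count of members past the threshold was 0 in edgeR in all 11 tests. It stayed at 0 with each library left out in turn, wherever the test could still be fitted. Early lesions outside against core could not be fitted without hyperplasia 46, the only hyperplasia region outside the tumour. Of 98 other settings, 96 also gave a count of 0. The exceptions were DESeq2 in adenoma core against border, with 1 member (Ddit3, log2 difference -2.28, adjusted p 0.0290), and DESeq2 in early lesions outside against core, with 1 member (Chac1). The log2 difference of Slc3a2 between adenoma and hyperplasia was -1.14, and 0.0082 without the 3 libraries of fewest genes; leaving out hyperplasia 22 alone gave -0.05. Over all settings Atf4 in hyperplasia minus normal lay between 1.49 and 2.41 (adjusted p 0.0559 to 0.577), Asns between 2.27 and 4.20 (adjusted p 0.160 to 0.890) and Psat1 in adenoma core minus border between -4.18 and -2.46 (adjusted p 0.0763 to 1.0). The adjusted p of Atf4 over all stages was 0.0762 to 0.385 with a library left out.

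The score of normal gland was the only score that moved beyond its SD. For the Atf4 arm it was 4.04 with all members that have a count, 4.61 with DESeq2 size factors and 4.57 without the gene ID of highest share; for the chaperone arm it was 6.38 with DESeq2 size factors and 6.49 without that gene ID. With each library left out, it lay between 4.18 and 4.40 for the Atf4 arm and between 5.84 and 6.17 for the chaperone arm. The cause was not tested. With 3 normal regions, 3 animals and a common dispersion of 2.64, small differences could not be detected in these libraries.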
